A study of Mus musculus with 2 samples.

Results

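Nfatc1, Mitf and Prdm1 encode transcription factors of the osteoclast, the cell that resorbs bone. Their open chromatin was read from peaks of DNase-seq, in which DNase I cuts accessible DNA and the released fragments are sequenced. The members were all peaks that overlapped 3 windows on the mouse build mm9. These windows were 80.75 to 80.96 Mb of chromosome 18 for Nfatc1, 97.70 to 98.02 Mb of chromosome 6 for Mitf and 44.10 to 44.30 Mb of chromosome 10 for Prdm1. They held 9 of the 13492 peaks called without RANKL and 9 of the 16447 peaks called with RANKL. A member with at least 1 bp in common with some peak of the opposite list is described as shared. Any other member was called in one list only.

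The cells were RAW264, a macrophage-like mouse line obtained from a cell bank and used at passages 3 to 7. One library came from undifferentiated cells without RANKL. The other came from cells given GST-RANKL at 234 ng/ml for 24 hours. RANKL, the receptor activator of NF-kappaB ligand, is the cytokine that turns macrophage precursors into osteoclasts. Since each condition had 1 library, replicate error could not be estimated and samples could not be tested against each other. Differences describe these 2 libraries. The identity of the cells could not be checked against marker genes, because peak lists hold no expression values.

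NFATc1 is a calcium- and calcineurin-dependent factor that RANKL induces through NF-kappaB and AP-1. It then binds its own promoter and turns on genes of bone resorption. MITF is a basic helix-loop-helix leucine zipper factor that is made from several alternative promoters. In osteoclasts it acts with PU.1 on genes such as Acp5 and Ctsk, which encode tartrate-resistant acid phosphatase and cathepsin K. Prdm1 encodes Blimp1, a zinc finger repressor that acts downstream of NFATc1 and silences Irf8 and Bcl6, genes that hold back osteoclast formation.

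The 3 windows held few peaks each, and their counts of sites called in both libraries ranged from 0 to 2. Both of the strongest Nfatc1 sites were called in both libraries. At Mitf no site was, with 4 sites called only with RANKL and 2 called only without it. Prdm1 had 1 shared site at the edge of its window and 1 site of each list only. Counted as separate places, the 3 windows held 15 sites, of which 3 were in both lists, 6 only in the list without RANKL and 6 only in the list with RANKL. Of the member peaks without RANKL, 6 of 9 were called in that list only, against 39.3% of the whole list. With RANKL, 6 of 9 were called in that list only, against 34.3% of the whole list. The shared share was 33.3% in each case, and its exact Clopper-Pearson 95% interval, 7.49 to 70.1%, takes in the 60.7% and 65.7% of the whole lists. This interval covers counting error only and treats neighbouring peaks as independent. The intervals of the single windows overlapped in both lists, so these counts do not tell the windows apart. With RANKL they were 9.43 to 99.2% for Nfatc1, 0 to 60.2% for Mitf and 1.26 to 98.7% for Prdm1.

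**Figure D1:**
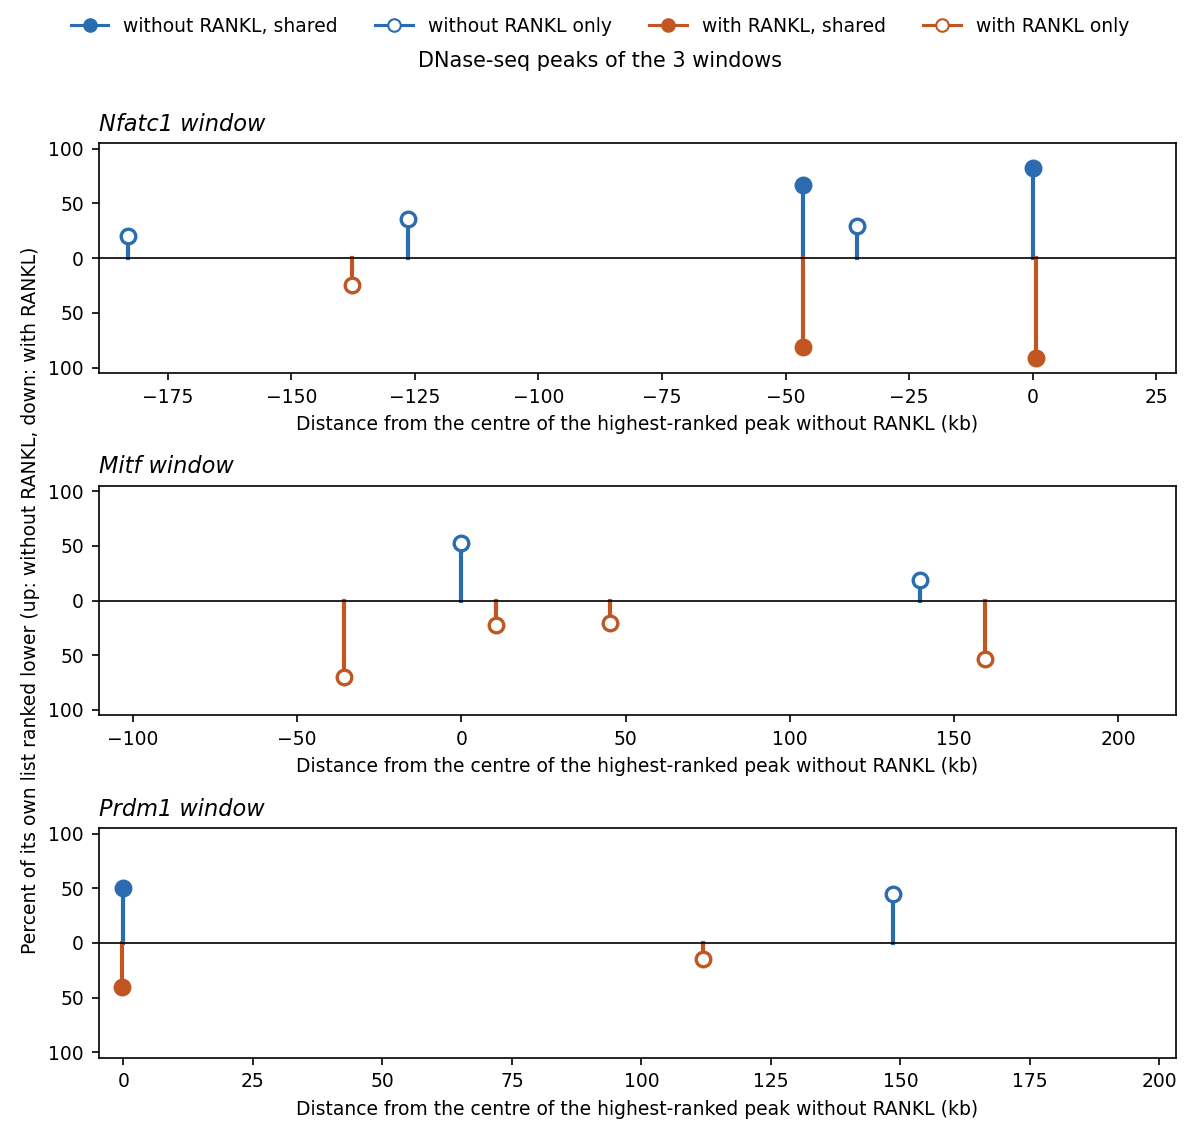
Peaks of the Nfatc1, Mitf and Prdm1 windows by distance in kb from the centre of the highest-ranked peak without RANKL in each window. The height is the percent of the peak's own list ranked lower by score, drawn upward without RANKL (blue) and downward with RANKL (orange), and filled points are shared. The 2 shared Nfatc1 sites are the tallest in both directions, and every point of the Mitf window is open.

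The Nfatc1 window of 210 kb held 5 peaks without RANKL and 3 with RANKL. The highest-ranked site of the window in both lists lay on chromosome 18 at 80933408 to 80936535 without RANKL, where it was 3128 bp wide and scored 179.41. Scores come from the authors' peak calling and can be read only within a list, so ranks are given too. This peak ranked 2350 of 13492, in the top 17.4% of the list without RANKL. With RANKL a peak of 715 bp lay inside it, at 80935219 to 80935933, with a score of 226.17 and rank 1464 of 16447, the top 8.90%. The site was therefore among the stronger ones of either library.

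The second shared Nfatc1 site lay at 80887520 to 80889581 without RANKL, with a score of 131.88 and rank 4500, the top 33.4%. Its RANKL peak, at 80888326 to 80888812, scored 143.64 and ranked 3152, the top 19.2%. Both Nfatc1 sites thus stood higher in the list with RANKL than in the list without, by 8.52 and 14.2 percentage points of rank. Such shifts were common. Of 5931 sites with exactly 1 peak in each list, 3499 (59.0%) ranked higher with RANKL, and 41.3% and 32.8% shifted upward by at least as much as these sites did. The quartiles of the shift over all these sites were -9.33 and 20.7 points.

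Peaks were broader without RANKL over the lists as a whole, with a median width of 1738 bp against 233 bp with RANKL. The cause of that difference was not tested. The narrow RANKL peaks sat differently in the 2 Nfatc1 sites. At 80887520 to 80889581 the centres of the broad and narrow peaks were 18.5 bp apart, closer than in 92.8% of the 5931 sites. At 80933408 to 80936535 they were 604.5 bp apart, farther than in 94.9% of them. This broad peak was among the widest 5.25% of its list, and the comparison took no account of width. There the RANKL peak left 1811 bp of the broad peak on its lower side and 602 bp on its upper side. The broad peaks were 4.23 and 4.37 times as wide as the narrow ones, against a median of 5.76 and quartiles of 4.01 and 8.02 over the 5931 sites. Both Nfatc1 ratios lay between those quartiles.

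The other 4 Nfatc1 sites were called in 1 library. Without RANKL, the peak at 80807903 to 80809344 scored 81.9 (top 64.2%), the peak at 80898440 to 80900333 scored 74.23 (top 70.9%) and the peak at 80750760 to 80753149 scored 65.83 (top 79.5%). The gaps from these peaks to the nearest RANKL peak were 10.5, 9.63 and 28.7 kb. The only RANKL peak without a counterpart lay at 80797185 to 80797374, was 190 bp wide and scored 56.94 (top 75.5%). It was 10.5 kb from the untreated site at 80807903. All 4 were in the lower 50% of their list by score.

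Weak peaks were often unmatched in the lists as a whole. With each list divided into deciles by score, decile 1 being the highest, the overlapped share went from 99.0% in decile 1 to 25.5% in decile 10 without RANKL, and from 95.3% to 34.2% with RANKL. The unmatched Nfatc1 peaks without RANKL lay in deciles 7 and 8, where 44.3% and 34.6% of peaks were overlapped by a RANKL peak. The shared Nfatc1 peaks lay in deciles 2 and 4, where 92.9% and 75.0% were. Scores in both lists started at 50.0 and weaker sites are not listed, so an unmatched member may have been open in the other library below that line.

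**Figure D2:**
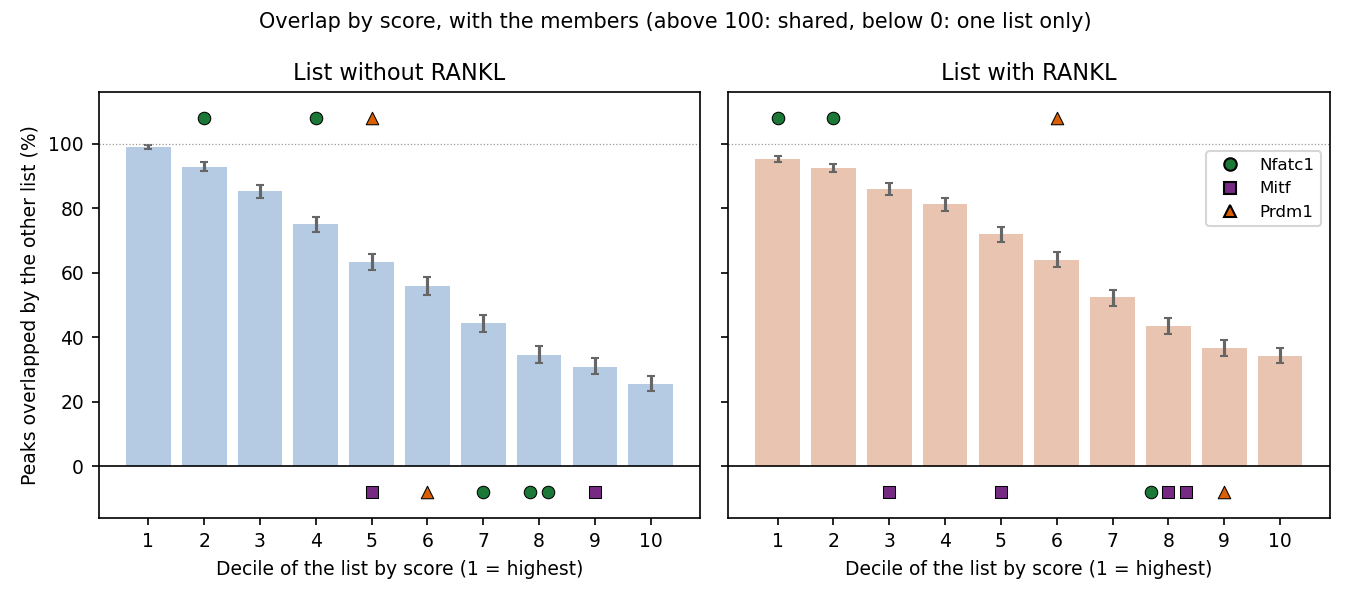
Bars show the percent of peaks overlapped by the other list in each decile of a list by score, with exact 95% intervals, and markers show the decile of each member, above 100 when shared and below 0 when called in that list only. The shared Nfatc1 peaks lie in deciles 2 and 4 without RANKL and 1 and 2 with RANKL, and the highest unmatched member is the Mitf peak in decile 3 with RANKL.

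The Mitf window of 320 kb held 2 peaks without RANKL and 4 with RANKL, and none of the 6 overlapped. For 0 of 4 peaks with RANKL the exact Clopper-Pearson 95% interval was 0 to 60.2%, and the looser limit of 3 counts of the total was 75%. The 65.7% shared in the whole list lies above the exact limit of 60.2% and below the looser one, which is rough for 4 peaks. No difference of the window from the list is drawn from this, given the limits named below. For 0 of 2 peaks without RANKL the exact interval was 0 to 84.2%, which takes in the 60.7% of the whole list. These intervals treat the peaks as independent and take no account of score. Nor do they allow for reading out the only window of the 3 without a shared peak. Of the 4 RANKL peaks, 2 lay in decile 8, where 43.5% of the list was shared. The others lay in deciles 3 and 5, where 86.0% and 71.9% were shared. On chromosome 6 as a whole, 57.6% of the 682 peaks without RANKL and 62.9% of the 793 with RANKL were shared.

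The strongest RANKL peak of the Mitf window lay on chromosome 6 at 97770494 to 97770855, 33.9 kb from the nearest untreated peak. It scored 106.76, ranked 4891 of 16447 (top 29.7%) and was 362 bp wide, against a median of 155 bp for peaks called only with RANKL. Among those 5634 peaks it ranked 421, in the top 7.47%, and on chromosome 6 it ranked 19 of 294. In its decile of the list, decile 3, 86.0% of peaks were shared. Of all 4891 RANKL peaks with at least its score, 421 (8.61%) had no untreated counterpart. It was the highest-ranked unmatched member with RANKL in the 3 windows.

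A second RANKL peak of the Mitf window, at 97965742 to 97965909, scored 77.73 and ranked 7644 (top 46.5%). It ranked 1036 among the peaks called only with RANKL (top 18.4%) and lay 19.1 kb from the nearest untreated peak. It was 168 bp wide. The remaining peaks with RANKL were close to the lowest listed score. They lay at 97816748 to 97816898 (score 56.08, top 77.5%) and at 97851740 to 97851868 (score 55.23, top 79.9%), and were 151 and 129 bp wide. In their decile of the list, decile 8, 43.5% of peaks were shared.

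Without RANKL, the stronger Mitf peak lay at 97804729 to 97808069 and scored 104.88, rank 6441 of 13492 (top 47.7%). At 3341 bp it was the widest member, and 4.06% of the list was at least as wide. Of those 548 wide peaks, 96 (17.5%) had no RANKL peak on them, and in its score decile 63.3% of peaks were shared. It was the one unmatched member without RANKL in the upper 50% of its list. The nearest RANKL peak, at 97816748, lay 8.68 kb away. The weaker Mitf peak, at 97945171 to 97946621, scored 64.32 (top 81.3%) and lay 19.1 kb from the RANKL peak at 97965742. Along the window the 6 sites were thus spread out singly, with gaps between neighbours of 8.68 to 93.3 kb.

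**Figure D3:**
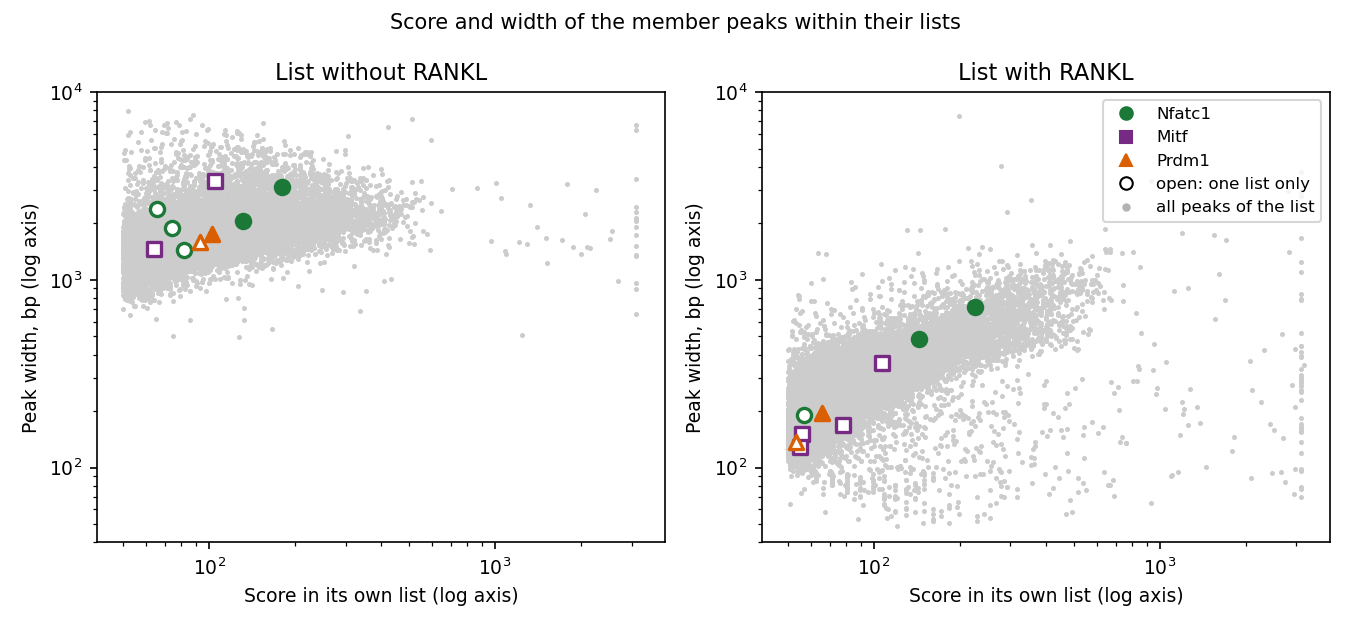
Score (x, log axis) against width in bp (y, log axis) for all peaks of each list in grey and for the members in colour, open when called in one list only. The Nfatc1 peaks with scores of 143.64 and 226.17 are the widest members with RANKL, and the open Mitf square at 106.76 lies between them and the members at 77.73 and below.

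The Prdm1 window of 200 kb held 2 peaks in each list. Its shared site lay on chromosome 10 at 44099897 to 44101657 without RANKL, across the lower edge of the window, with a score of 102.32 and rank 6650 (top 49.3%). The RANKL peak on it, at 44100478 to 44100672, scored 65.88 and ranked 9756 (top 59.3%). It was thus the one shared member that stood lower in the list with RANKL, by 10.0 percentage points of rank. Of the 5931 sites, 75.8% had a shift at or above this one, and the lower quartile was -9.33 points. The broad peak was 9.03 times as wide as the narrow one, a higher ratio than at 82.7% of the 5931 sites. With the window narrowed by 25 kb on each side this site was lost, and no shared Prdm1 site was left.

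The other Prdm1 sites were each called once. The untreated peak at 44248599 to 44250191 scored 93.28 and ranked 7462 (top 55.3%), and it was in the top 27.0% of the 5306 peaks called only without RANKL. In its decile of the list, decile 6, 55.9% of peaks were shared. The RANKL peak at 44212674 to 44212810 was 137 bp wide and scored 53.5 (top 85.4%), the lowest score of any member. These peaks lay 35.8 kb apart. The Prdm1 window was the one without a RANKL peak in the upper 50% of its list.

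Nfatc1 had the densest set of open sites. It held 2.38 peaks per 100 kb without RANKL and 1.43 with RANKL, against 0.512 and 0.621 over chromosomes 1 to 19 and X. Mitf had 0.625 and 1.25 peaks per 100 kb, and Prdm1 1.00 and 1.00. With RANKL the lead of Nfatc1 over Mitf depended on the window edges. Narrowed by 25 kb on each side, the Nfatc1 window held 2 RANKL peaks and the longer Mitf window 4. Stretches of 210 kb laid end to end along these chromosomes held at least 5 peaks without RANKL in 6.62% of cases and at least 3 with RANKL in 19.1%. For Mitf, 32.8% of 320 kb stretches held at least 2 peaks without RANKL and 21.3% at least 4 with RANKL. For Prdm1, 24.2% and 27.6% of 200 kb stretches held at least 2 peaks. Between 48.0 and 62.4% of these stretches held no peak at all in one list or the other. Each window held more peaks than the median stretch of its length in both lists, but that median was only 0 or 1. The stretches were not chosen for holding a gene. Nfatc1 was the window in which fewer peaks were called with RANKL, and Mitf the one in which more were.

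Above the Prdm1 window in both lists, and above the Mitf window with RANKL, no peak was listed for long stretches. Such gaps were not compared with those of the whole lists. The next RANKL peak lay 908 kb above the Mitf window, while an unmatched peak without RANKL, scoring 78.74, lay 34.6 kb above it at 98054638 to 98056170. Above the Prdm1 window the next peaks lay 439 kb away without RANKL and 508 kb away with RANKL. Above the Nfatc1 window a shared site followed after 169 kb. Below the Nfatc1, Mitf and Prdm1 windows the next RANKL peaks lay 28.0, 245 and 31.4 kb away. The next peaks without RANKL lay 81.6, 285 and 111 kb below them. In the gene table supplied, which is on GRCm38, the nearest protein-coding neighbours are Ctdp1 and Atp9b for Nfatc1, Frmd4b and Gm765 for Mitf, and Atg5 and Prep for Prdm1. No mm9 annotation was used here, so promoters, exons and introns were not assigned, and a member near a window edge cannot be told apart from a site of a neighbouring gene.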

How the data were processed

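DNase-seq was done on 2 RAW264 libraries. The authors deposited a peak list for each, in which every peak has coordinates and a score. DNA of 100 to 500 bp was selected on a gel before sequencing, per the labels' protocols. The tools named are MACS2 and Bowtie2 2.0.0, with the build mm9, per the submitters' processing notes. The threshold for peaks, a control library, if any, and what the score measures were not given in the sources used here. Library depth is unknown, and no interval based on it is given.

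Peaks overlapping the 3 windows were taken with pandas 2.3.3 and numpy 2.4.6 in Python 3.11.15, intervals with scipy 1.17.1, and figures with matplotlib 3.10.9. Starts were raised by 1 to count from 1. Scores were ranked within each list, 1 being the highest. Overlap, gap and merging code was tested on simulated peaks. Every member was named. The planned motif search and the counts at other osteoclast genes need mm9 sequence or annotation and were not run. Windows and members were chosen with earlier results of these data known. Alternatives were other overlap rules, score limits, window edges, merged peaks and other ranking sets.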

Additional observations from a re-analysis of the deposited data

How the results depend on the processing

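Of 24 alternative values over the 3 windows together, 20 stayed near the reported value. The counts among them differed from the reported count by at most 1.5 times. Ranking among chromosomes 1 to 19 and X gave median ranks of 55.3% without and 59.1% with RANKL. Counting only members in the upper 50% of their list by score left 1 peak called only without RANKL and 2 called only with RANKL, all at Mitf, because weak members drop out by construction. The median rank of all members was the top 55.3% without and 59.3% with RANKL. The 3 shared members alone had medians of 33.4% and 19.2% in their whole lists, and 49.9% and 27.4% when ranked among shared peaks, which leaves out the weaker unmatched peaks. Windows of 500 bp around each peak centre made the Nfatc1 site at 80933408 unmatched, for 7 unmatched members in each list. Of 60 values for single windows, 48 stayed within 1.5 times. No Mitf peak became shared under any overlap rule tried. None could have, since the widest rule reached 1 kb and the smallest Mitf gap was 8.68 kb. No paired analysis was possible because each condition had 1 library, which also left no replicate to omit. Without the libraries' depth, an unmatched peak cannot be told apart from one just under the calling line.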
